A study of Mus musculus with 2 samples.

Results

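Osteopontin, the product of Spp1, and the genes of its known receptors were followed in lung cells of mice given saline or bleomycin, a drug that injures the lung and leaves scarring. The rule took 7 of the 28692 genes in the files by symbol: Spp1, the hyaluronan receptor gene Cd44, and the integrin subunit genes Itgav, Itgb3, Itgb5, Itga4 and Itga9. Spp1 was chosen by its measured bleomycin-to-saline ratio in the fibroblasts of these same libraries, so that ratio is given here as a description only. That ratio did not use how Spp1 was spread over the cells within a library or how the 6 receptor genes behaved. Differences between the libraries in the share of fibroblasts with Spp1 follow in part from it and are descriptions too.

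The mice were 8 to 10 weeks old and of the genotype Lepr-Cre;Rosa26-tdTomato in both groups. In this model a Cre recombinase under the control of the leptin receptor gene Lepr switches on the red fluorescent protein tdTomato for good, so a red cell, or one of its ancestors, has had Lepr activity. Lungs were digested, live red cells were sorted, and transcripts were counted in droplets by unique molecular identifiers (UMIs), using the 10x Genomics v2 kit that reads the 3′ end of each transcript. One library was made from saline mice and 1 from bleomycin mice, and the number of mice in each, the dose and the day are not given in the labels. With 1 library per group no difference has a replicate check and no test was made. Bracketed intervals are 95% intervals for counting error only.

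The saline library held 37570380 UMIs and gave 5195 cells after filtering, at a median of 6302 UMIs per cell. The bleomycin library held 61537182 UMIs and gave 4308 cells, at a median of 12300. Cells were clustered without the 7 genes and named from marker lists, and each class name stands for cells that look like that type. Fibroblasts were 3559 saline and 3516 bleomycin cells, alveolar macrophages 640 and 331, endothelial cells 157 and 186, smooth muscle cells 234 and 141, monocytes or interstitial macrophages 85 and 81, pericytes 50 and 48, and epithelial cells 470 and 5. Of the 8 fibroblast markers 7 were seen in at least 25% of the fibroblasts of each library, and the 8 summed to 12458 UMIs per 1000000 in saline and 17760 in bleomycin fibroblasts. The classes did not hold the same clusters in both libraries: saline fibroblasts fell mainly into clusters 0 to 5 and bleomycin fibroblasts into clusters 12, 17 to 19, 22, 23, 25 and 26, and alveolar macrophages were mostly clusters 7 and 9 in the saline library, and cluster 24 in the other. The libraries shared 33 barcodes, and fibroblast Spp1 was 10.5 and 5036 UMIs per 1000000 without these cells, against 10.5 and 5037 with them.

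Osteopontin is a secreted, acidic phosphoprotein that binds mineral in bone and acts as an extracellular matrix and signalling protein elsewhere. It carries an Arg-Gly-Asp motif that integrins of the αv class bind, an adjoining motif uncovered by thrombin that α9β1 and α4β1 bind, and it also engages CD44. Integrins work as pairs of an α and a β subunit: Itgav encodes αv, which pairs with β1, β3 or β5 (Itgb1, Itgb3, Itgb5), while α4 and α9 pair with β1. In lung, osteopontin is best known from macrophages and is raised in fibrotic tissue.

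The genes lie on separate chromosomes or far apart on one. In the mm10 build (GRCm38), with positions from GENCODE vM21, Spp1 spans chr5:104435118-104441050 on the plus strand and is a short gene of 5933 bases. Cd44 lies at chr2:102811141-102901665 on the minus strand. Itgav (chr2:83724397-83806916), Itga4 (chr2:79255426-79333123), Itgb3 (chr11:104608000-104670476), Itgb5 (chr16:33829665-33949338) and Itga9 (chr9:118606690-118901003) lie on the plus strand. The 250 bases upstream of the Spp1 start in RefSeq, at chr5:104434861-104435110 on the plus strand, are shown because Spp1 was the member whose level differed most between the libraries; capitals mark a match to AACCACA, the core that RUNX factors bind, which begins 129 bases before the start.
Spp1 upstream: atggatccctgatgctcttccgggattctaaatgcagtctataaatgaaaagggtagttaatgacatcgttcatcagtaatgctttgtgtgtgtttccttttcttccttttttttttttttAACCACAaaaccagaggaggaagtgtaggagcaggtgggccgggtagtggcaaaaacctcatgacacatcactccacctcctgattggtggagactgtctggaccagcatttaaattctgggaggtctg
Such a match on either strand was in 4.40% of all 32851 upstream windows of that length. This window also held 1 TATAAA (in 12.4% of windows) and neither TGANTCA, the AP-1 core (6.75%), nor the E-box CACGTG (6.02%). A second RefSeq start of Spp1 had none of the 4 in its window, nor had those of Cd44, Itgav, Itgb5, Itga4 and Itga9. These matches describe letters only.

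Spp1 transcripts were far more abundant in the bleomycin library, and nearly all of them came from a minority of fibroblasts. Over all cells Spp1 had 1470 UMIs after saline and 276734 after bleomycin, or 41.8 [39.7 to 44.0] and 4715 [4697 to 4732] UMIs per 1000000 UMIs of all genes (UPM). In the saline library alveolar macrophages held 69.7% of the Spp1 UMIs with 8.37% of all UMIs, fibroblasts 18.4% and pericytes 10.6%. In the bleomycin library fibroblasts held 94.9% with 88.8% of all UMIs, and alveolar macrophages 2.95%. The fibroblast share follows from the ratio that chose the gene and is a description of these 2 libraries.

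In fibroblasts Spp1 had 270 UMIs (10.5 UPM [9.29 to 11.8]) after saline and 262591 (5037 UPM [5018 to 5056]) after bleomycin, a 479-fold ratio and a log2 ratio, taken with 1 UPM added to each level, of 8.77. The words rose and fell are kept for genes that passed a rule of size: a 2-fold ratio or more, with 50 UMIs and 20 UPM or more on the higher side. Of 5882 genes measured in fibroblasts 15.9% passed it, 6.17% rising and 9.69% falling; Spp1 was among those that rose, from which nothing is read, since this contrast chose it. Its relatives among the secreted bone phosphoproteins, Ibsp, Dmp1, Mepe and Dspp, were all under the count minimum in fibroblasts, the highest being Ibsp at 2.86 UPM after bleomycin.

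Spp1 was spread very unevenly over bleomycin fibroblasts. The median cell held 3 Spp1 UMIs, the 90th percentile was 132.5, the 99th was 1571 and the top cell held 4226. Of the 3516 cells 292 had none and 531 had 1; 610 had 10 to 99, 341 had 100 or more but under 1000, and 66 had 1000 or more. The top 10% of cells, ranked by Spp1 per UMI, held 85.7% of the Spp1 UMIs, and 82 cells (2.33%) held as many as all the others. The highest value relative to depth was 1895 Spp1 UMIs per 10000 UMIs of the cell. The saline fibroblasts reached no such counts: 3511 of 3559 had no Spp1 UMI and the top cell had 96. Their few UMIs were spread unevenly too, with 95.6% of 270 in the top 1% of cells, against 30.0% in bleomycin.

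**Figure D1:**
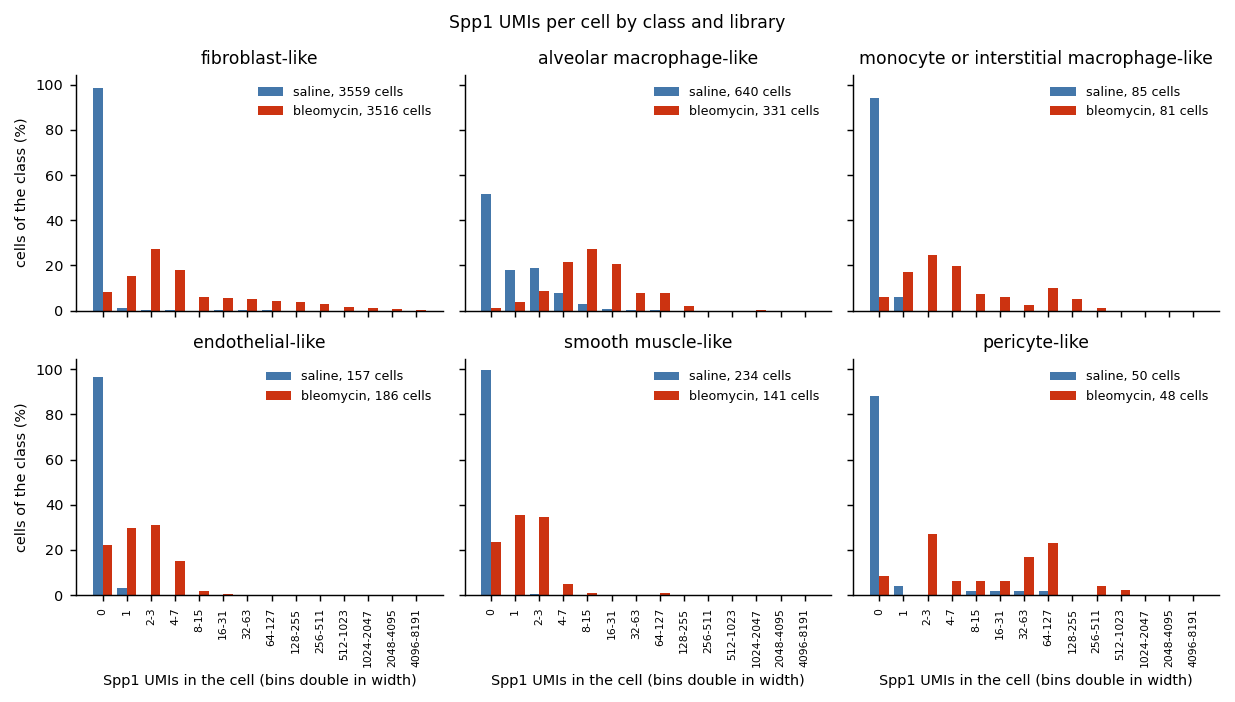
Spp1 UMIs per cell (x axis, bins that double in width) against the percent of the cells of a class (y axis), in saline (blue) and bleomycin (red) cells of 6 classes. Endothelial and smooth muscle cells of the bleomycin library sit at 0 to 7 UMIs, apart from 6 cells, whereas fibroblasts reach 4226.

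Endothelial and smooth muscle cells also held a little Spp1 after bleomycin, and their level was taken as a line below which Spp1 was not read as the cell's own. In endothelial cells Spp1 was 4.02 UPM after saline (5 UMIs) and 199 UPM [179 to 220] after bleomycin (376 UMIs). That is 3.95% of its level in bleomycin fibroblasts, and 12 other genes of fibroblasts stood at 1.78% (Col1a1) to 7.24% (Cthrc1) of their fibroblast level in the same endothelial cells. Ratios past the size rule in endothelial cells (log2 5.32) and smooth muscle cells (1.89 and 239 UPM, log2 6.38) are at this level, treated here as background. Whether this Spp1 came from the cells themselves or as free RNA from other cells was not tested. In smooth muscle 1 cell held 74 of the 277 UMIs, and the others were at 176 UPM. Since depth differed (bleomycin fibroblasts had a median of 13611 UMIs and endothelial cells 7545), each cell was also thinned to 2000 UMIs. Then 50.9% [49.2 to 52.5] of bleomycin fibroblasts held a Spp1 UMI, against 0.450% [0.257 to 0.729] of saline fibroblasts, but 34.4% [27.6 to 41.7] of bleomycin endothelial cells and 31.2% of smooth muscle cells did too. Without thinning the bleomycin fibroblast share was 91.7%. A share of cells with at least 1 UMI therefore includes many cells at the level treated as background. At 10 or more UMIs the unthinned shares were 28.9% [27.4 to 30.5] of fibroblasts and 0.538% [0.0136 to 2.96] of endothelial cells.

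The highest endothelial cell, at 18.5 Spp1 UMIs per 10000, gave a stricter line, set after the data were seen. Above it were 726 of 3516 bleomycin fibroblasts (20.6% [19.3 to 22.0]), which held 95.3% of the fibroblast Spp1 UMIs at 21355 UPM, while the other fibroblasts stood at 307 UPM. This is a range and not a cell type, since 365 fibroblasts (10.4%) lay within 2-fold of the line.

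The kinds of bleomycin fibroblast differed in Spp1. Fibrotic fibroblasts, named from Cthrc1, Postn and similar genes, were 1527 cells at 5557 UPM [5529 to 5584] (647 UPM in 18 saline cells), and 1483 fibroblasts of no named kind were at 5434 UPM [5401 to 5467]. Alveolar fibroblasts, which support the air sacs, were 327 cells at 463 UPM [439 to 488], from 1.67 UPM in 2722 saline cells, and 5.78% of their 5725 measured genes passed the size rule. Of the 1420 Spp1 UMIs 920 were in 30 cells of cluster 3, led by Saa3 and Cxcl10. The top alveolar fibroblast alone held 583, a spread over cells that the interval leaves out. Without cluster 3 the level was 187 UPM, near that of endothelial cells. The level moved with which clusters took the name, to 1950.4 UPM at finer clustering and 4748 UPM with doublets kept. Adventitial fibroblasts, which line large vessels and airways and were named from Pi16 and its companions, were 179 cells at 180.5 UPM [161 to 202], and none of them passed the endothelial line. In cluster 18, which held most of the alveolar fibroblasts, 1 of 280 cells passed it. High Spp1 was thus rare in bleomycin fibroblasts that kept alveolar or adventitial markers.

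Among clusters with 50 or more cells of a library, the 5 highest after bleomycin were cluster 22 at 16483 UPM, led by Timp1, Cthrc1, Thbs4 and Fst, cluster 19 at 7329, led by Saa3, Timp1 and Sfrp1, cluster 17 at 6799, cluster 26 at 4695 and the macrophage cluster 24 at 3695. The pericyte cluster 8, with 48 bleomycin cells under that limit, was at 7589. In cluster 22 157 of 292 cells (53.8% [47.9 to 59.6]) were above the endothelial line. Cluster 25, also named fibrotic but led by Mmp3, Ptn and Igfbp6, was lower at 1210.4 UPM with 73 of 735 cells (9.93% [7.87 to 12.3]) above it. In this library clusters 22 and 25 thus differed in level and in the share of cells above the line. The counting intervals of their levels, [16373 to 16595] and [1192 to 1229], leave out the spread over cells. Endothelial clusters 20 and 16, alveolar fibroblast cluster 18, adventitial cluster 12 and smooth muscle cluster 15 lay together between 157 and 196 UPM, with intervals that all overlapped. The 5 highest saline clusters were the pericytes (547 UPM), macrophage clusters 9 (436) and 7 (328), cluster 14 (7.05) and smooth muscle cluster 13 (4.21), and saline fibroblast clusters 0 to 5 were at 1.04 to 2.60 UPM.

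**Figure D2:**
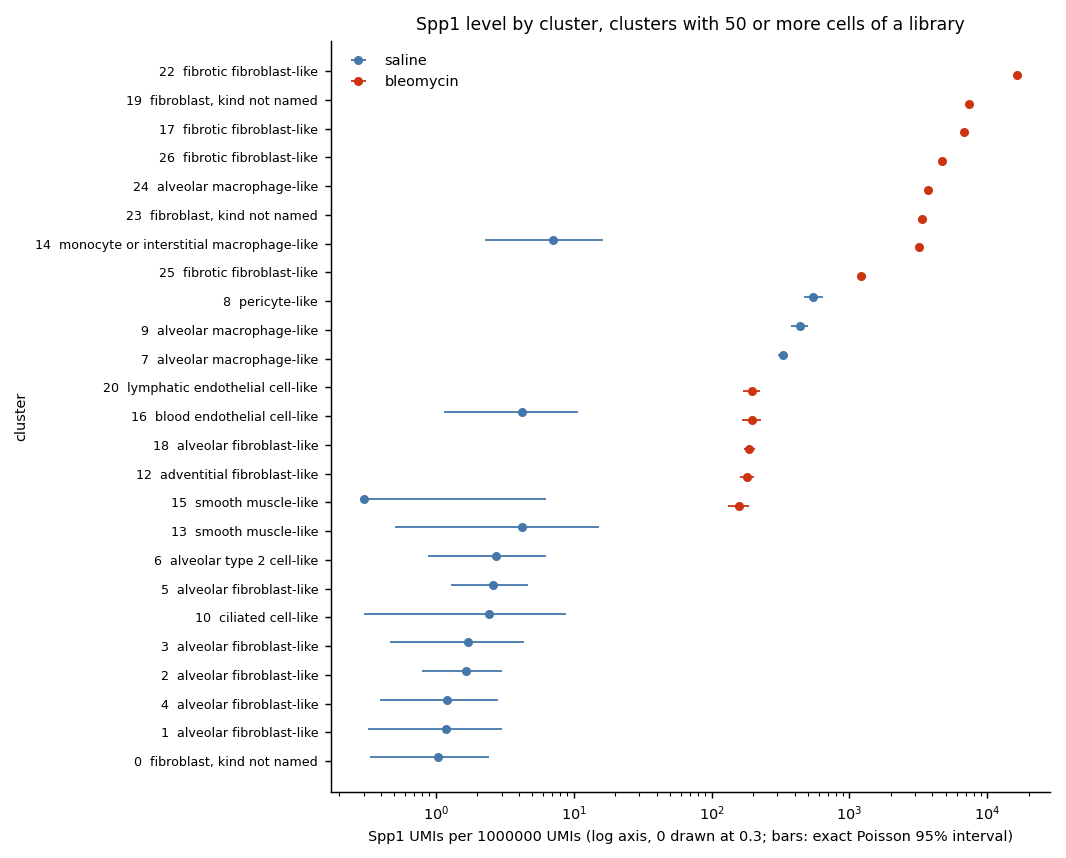
Spp1 UMIs per 1000000 UMIs (x axis, log scale, 0 drawn at 0.3) for each cluster with 50 or more cells of a library (y axis), with exact Poisson 95% intervals, in saline (blue) and bleomycin (red). Bleomycin clusters form a group at 157 to 196 and another from 1210.4 to 16483.

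In the saline library the few fibroblasts rich in Spp1 were those placed among bleomycin-type clusters. Only 5 of 3559 saline fibroblasts had 10 or more Spp1 UMIs, with 96, 41, 40, 26 and 18, and they held 81.9% of the 270 UMIs. All 5 were in clusters 17, 19, 22 and 25, which held 39 saline and 1965 bleomycin cells and were formed without Spp1. None of the 5 had a barcode shared with the bleomycin library. The remaining 3554 saline fibroblasts were at 1.91 UPM, near the 1.89 UPM of smooth muscle and 2.46 UPM of epithelial cells.

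Alveolar macrophages, the resident phagocytes of the air space and the main saline source of Spp1, also had more of it after bleomycin. Spp1 was 348 UPM [327 to 369.9] with 1024 UMIs after saline and 3512 UPM [3436 to 3589] with 8174 UMIs after bleomycin, a 10.1-fold ratio (log2 3.33); 8.34% of the 5170 genes measured in these cells passed the size rule (2.92% rose and 5.42% fell). The median macrophage went from 0 to 11 Spp1 UMIs, where the median fibroblast went from 0 to 3. Macrophages with 10 or more went from 2.66% [1.55 to 4.22] to 55.9% [50.4 to 61.3], and the thinned share with a UMI from 33.6% to 86.4%. The top 10% of bleomycin macrophages held 49.3% of the UMIs, against 56.7% in saline macrophages and 85.7% in bleomycin fibroblasts. The 2 saline clusters stood at 328 and 436 UPM and bleomycin cluster 24 at 3695. In these bleomycin macrophages the 12 fibroblast genes stood at 3.05% (Col1a1) to 7.88% (Col12a1) of their fibroblast level and Spp1 at 69.7%. In the other direction, saline endothelial, epithelial and smooth muscle cells had 1.16%, 0.708% and 0.544% of the macrophage Spp1 level, and 6 macrophage genes 0.0885% to 2.21%. The part of free RNA in these levels was not tested.

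**Figure D3:**
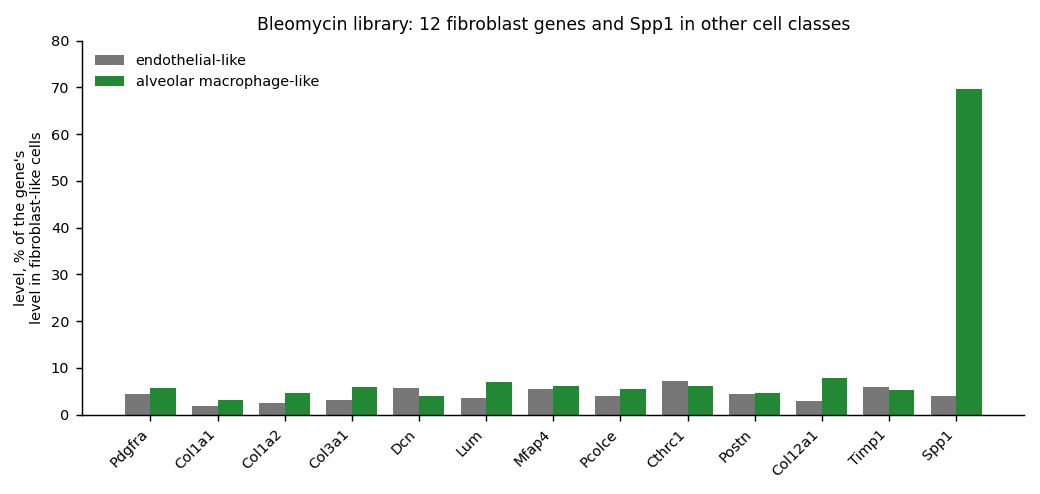
Level of 12 fibroblast genes and Spp1 in endothelial (grey) and alveolar macrophage (green) cells of the bleomycin library, as percent of each gene's level in fibroblasts (y axis). Spp1 is at 3.95% in endothelial cells, within the range of the other genes, and at 69.7% in macrophages, above all 12.

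Monocytes or interstitial macrophages were at 7.05 UPM (5 UMIs) after saline and 3220.0 UPM [3092 to 3352] after bleomycin, in 85 and 81 cells, with 26.9% of their 2101 measured genes past the size rule. Finer clustering parted 49 saline and 8 bleomycin T or NK cells from this class, and the 36 and 73 cells left were at 12.7 and 3453 UPM. In the class as first named the 12 fibroblast genes were at 2.26% to 24.6% of their bleomycin fibroblast level, and Spp1 at 63.9%. C1qa, a complement gene of interstitial macrophages, differed in the same direction in those cells (774 and 3468 UPM), as did the alveolar macrophage gene Chil3 (60.5 and 982 UPM); in the class as first named Ear2, another such gene, was 60.6 and 261 UPM. The part of these in the result was not tested. Pericytes, the contractile cells on capillaries, had 547 UPM [465 to 640] and 7589 UPM [7316 to 7870] in 50 and 48 cells, the highest class in both libraries; 8.17% of their 1298 measured genes passed the rule. In saline 3 pericytes held 93.6% of the 156 UMIs; in bleomycin the median was 27 UMIs and 26 of 48 cells were above the endothelial line.

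The genes whose level followed Spp1 most closely over 28 sums of cluster and library (at least 50 cells each) were Lamtor1 (Pearson r of log2 levels 0.903), Rbm3 (0.849), Sin3b (0.826), Eif4e2 (0.820), Hacd4 (0.813), Cox5b (0.812), Apex1 (0.810), Eif1ad (0.806), Capg (0.806) and Ap2s1 (0.805), out of 12804 genes. These r values are a description: the sums share 2 libraries that differ in depth, and Lamtor1 ran only from 62.5 to 173 UPM. Correlations of Spp1 with its receptor genes over the same sums ran from -0.39 (Itga9) to 0.33 (Cd44).

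Of the 6 receptor genes 4 were measured in fibroblasts and none of these passed the size rule, beside 15.9% of all measured genes. Cd44, the most abundant with Itgb5, was 102 UPM [97.8 to 106] after saline and 159 UPM [156 to 162.5] after bleomycin (log2 0.64). Itgb5 was 178 [173 to 183.5] and 167 [164 to 171] UPM (log2 -0.09). Itgav was 36.3 [34.0 to 38.7] and 38.7 [37.1 to 40.5] UPM (0.09) and Itga9 26.8 [24.8 to 28.9] and 17.5 [16.3 to 18.6] UPM (-0.59). Itgb3 (0.662 and 1.92 UPM) and Itga4 (0.389 and 0.211 UPM) were under the count minimum. At a lower bar of 1.5-fold, Cd44 would have risen and Itga9 fallen. Within kinds of fibroblast the pooled differences were not seen. Itga9 was higher after bleomycin in alveolar fibroblasts (29.7 and 42.1 UPM, log2 0.49) and in fibroblasts of no named kind (15.9 and 22.2 UPM, log2 0.46), opposite to the pooled value. Cd44 was 94.9 and 92.6 UPM in the first (log2 -0.04) and 117 and 125 UPM in the second (log2 0.09). The mix of kinds differed between the libraries: alveolar fibroblasts numbered 2722 after saline and 327 after bleomycin, and fibrotic fibroblasts, at 10.9 UPM of Itga9 and 193 of Cd44 after bleomycin, 18 and 1527. The part of this mix in the pooled values was not tested.

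Because each UMI tags 1 transcript at its 3′ end, UPM may be set side by side between genes without scaling by length, though capture can differ between genes, and splice forms of Cd44 are not told apart. Among integrin pairs in fibroblasts, αv was thus met by far more β5 (Itgb5) than β3 (Itgb3) transcript, 167 against 1.92 UPM after bleomycin. The shared partner β1 (Itgb1) was at 234 and 375 UPM (log2 0.68), short of the rule. With cells thinned to 2000 UMIs, 1.88% [1.45 to 2.38] of bleomycin fibroblasts held both Itgav and Itgb5, near the 1.81% that the product of the single shares (6.88% and 26.3%) gives, and 1 cell of 3516 held both Itgav and Itgb3. For Spp1 with Cd44 the share with both was 12.8% [11.7 to 13.9] and the product 12.6%, and for Spp1 with Itgb5 14.2% [13.1 to 15.4] and 13.4%.

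Across the fibroblast clusters Cd44 was lowest in saline cluster 5, with an interval of 32.4 to 44.3 UPM, and highest in saline cluster 3, at 258 UPM, a wider span than the gap between the libraries. Among bleomycin clusters Cd44 was 224 UPM in cluster 25 and 196 UPM in cluster 22, and 87.7 UPM in the alveolar cluster 18. Itgb5 was highest in cluster 22, at 309 UPM, which was also the highest in Spp1, and lowest in cluster 25, at 100.2 UPM. Itga9 had its highest bleomycin fibroblast level in cluster 18 at 46.2 UPM and was at 7.54 UPM in cluster 26.

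Bleomycin fibroblasts were ranked by the Spp1 share of each cell and split into 5 groups of 703 or 704 cells, and Itgb5 was highest where Spp1 was. From the lowest to the highest group Spp1 was 54.2, 151, 257, 816 and 22021 UPM, which the ranking fixes. Itgb5 was 141 [134 to 149], 148, 147, 162 and 230.2 [221 to 239] UPM, so that the top group stood apart from the other 4. Cd44 was 172 [164 to 180] in the lowest and 145 [138 to 152] in the highest group. Over all fibroblasts Itgav was 36.4 to 43.3 and Itga9 15.4 to 20.6 UPM in the 5 groups, with no steady order. Restricted to fibrotic fibroblasts, Itgb5 was 126 [117 to 136] UPM in the lowest and 266 [252 to 279] in the highest group, and Cd44 218 [206 to 230.5] and 157 [147 to 168]. There Itga9 was higher at each step with Spp1, at 7.10 [5.05 to 9.71], 9.02, 10.2, 12.7 and 15.4 [12.3 to 18.9] UPM, while Itgav again had no steady order (33.8 to 48.1 UPM). Fibrotic clusters 22 and 25 differed in both Spp1 and Itgb5, and the part of the mix of clusters in these groups was not tested. Median depth rose from 12200 to 14992 UMIs from the lowest to the highest group of all fibroblasts, and was 17424 and 17393 in those of fibrotic ones. The highest group of alveolar macrophages had 106 [79.3 to 139] UPM of Itgb5 and the lowest 90.8 [65.5 to 123], with overlapping intervals. From the lowest to the highest of these macrophage groups Cd44 was 683 [610 to 763], 979, 961, 1033 and 939 [855 to 1029] UPM.

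**Figure D4:**
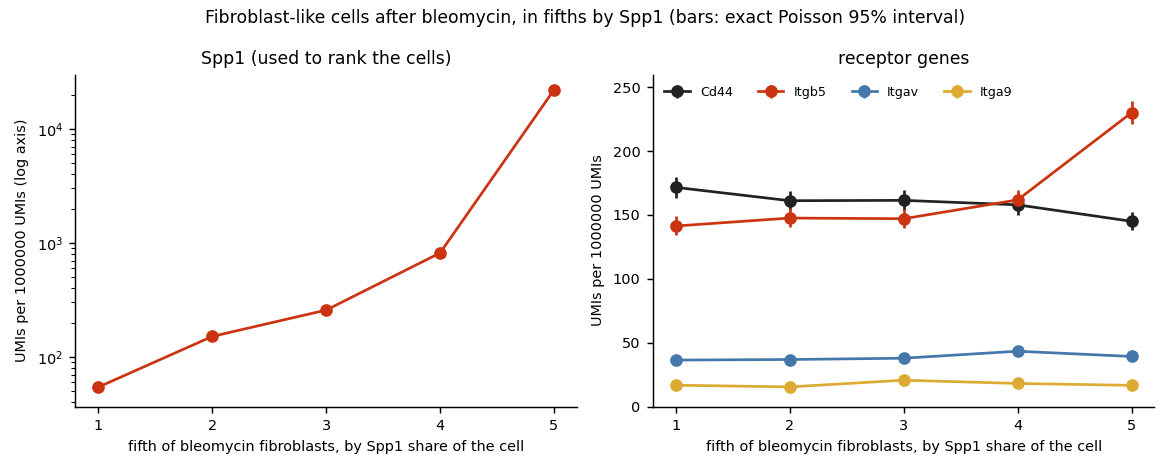
Bleomycin fibroblasts in 5 groups of near equal size by the Spp1 share of the cell (x axis, 1 lowest to 5 highest): at left Spp1 (log axis), at right Cd44, Itgb5, Itgav and Itga9, in UMIs per 1000000 UMIs with exact Poisson 95% intervals. Itgb5 is 141 to 162 in the first 4 groups and 230.2 in the last; Cd44 goes from 172 to 145.

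In alveolar macrophages, where Cd44 was more abundant than in any other class, it fell by 1.05 on the log2 scale from saline to bleomycin. Cd44 had 5589 UMIs (1899 UPM [1850 to 1950]) after saline and 2140 UMIs (919 UPM [881 to 959]) after bleomycin, just past 2-fold, and with each library clustered alone the ratio (log2 -0.94) was short of it. Itgb5 rose from 43.2 [36.0 to 51.3] to 90.2 [78.4 to 103] UPM (127 and 210 UMIs, log2 1.05), also near the line and short of it with doublets kept in (0.90), with libraries clustered alone (0.87) or with cells thinned (0.94). Itgb5 in these bleomycin macrophages was at 54.0% of its level in fibroblasts, above the 3.05% to 7.88% of the fibroblast genes. Itga4, the α4 subunit of leukocytes, was at 32.3 [26.1 to 39.5] and 22.3 [16.7 to 29.3] UPM (log2 -0.51, not past the rule). Itgav (15.97 and 17.2 UPM), Itga9 (9 and 2 UMIs) and Itgb3 (0 and 1 UMI) were under the minimum. Thus 2 of the 6 receptor genes passed the rule, in opposite directions, and 3 were under the minimum, beside 8.34% of all measured genes that passed.

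In endothelial cells 3 of the 6 receptor genes passed the rule, beside 19.3% of 4991 measured genes (9.36% rose and 9.98% fell), on small counts. Another 2, Cd44 and Itga4, were under the count minimum. Itgb3, the β3 subunit known from angiogenic vessels, rose from 8 UMIs (6.43 UPM [2.78 to 12.7]) to 88 UMIs (46.6 UPM [37.3 to 57.4]), log2 2.68. Itgb5 fell from 54 UMIs (43.4 UPM [32.6 to 56.6]) to 8 UMIs (4.23 UPM [1.83 to 8.34]), log2 -3.09. Fibroblast RNA moved with this fall: the 8 fibroblast markers summed to 3246 UPM in saline and 516 UPM in bleomycin endothelial cells, and Pdgfra, a fibroblast receptor, was 203 and 11.1 UPM. The bleomycin level of Itgb5 was 2.53% of that in fibroblasts, within the 1.78% to 7.24% of the fibroblast genes, and is treated here as background, which was not tested. Finer clustering removed 48 saline cells and 1 bleomycin cell rich in fibroblast genes; Itgb5 was then 23.0 UPM (17 UMIs) and 3.73 UPM (7 UMIs), under the count minimum, while Itgb3 was 10.8 and 46.9 UPM (log2 2.02) and still past the rule. With cells thinned to 2000 UMIs Itgb3 was under the count minimum (log2 2.23). The part of the remaining fibroblast RNA in these values was not tested.

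Itga9 in endothelial cells rose from 33.0 [23.7 to 44.7] to 66.1 [55.1 to 78.8] UPM (log2 0.98, a 2.01-fold ratio), while within its kinds the intervals of the libraries overlapped. Lymphatic cells, in which α9 is known to serve valve formation, had 117 [58.3 to 209] and 111 [90.4 to 135] UPM and blood endothelial cells 21.0 [12.8 to 32.4] and 21.0 [12.4 to 33.1] UPM. At finer clustering, without the saline cells rich in fibroblast genes, blood endothelial cells were at 13.4 UPM (6 UMIs) and 21.3 UPM (18 UMIs). Lymphatic cells made up 21 of 157 saline and 70 of 186 bleomycin endothelial cells. The part of this share in the class-wide rise was not tested. The rise passed the rule under 7 of 12 other settings; log2 was 0.85 at finer clustering, 0.30 as a mean over cells and 0.04 with cells thinned, where it was under the count minimum.

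In smooth muscle cells no receptor gene passed the rule in the main analysis, beside 9.26% of 3402 measured genes. Itgb3 and Itga4 were under the count minimum there. Itgav was 73.8 [58.3 to 92.1] and 60.5 [47.1 to 76.4] UPM, Itgb5 183 [158 to 210.2] and 162 [140.0 to 187], Itga9 81.4 [65.1 to 100.5] and 60.5 [47.1 to 76.4], and Cd44 107 [88.1 to 128.5] and 114 [95.4 to 135], each pair with overlapping intervals. With each library clustered alone the bleomycin class was smaller, and its Cd44 was 53.2 UPM, which fell past the rule (log2 -0.99). Under the stricter filter on barcodes Itga9 fell past it too (103 and 46.97 UPM, log2 -1.11).

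The order of the classes differed from gene to gene. The class of monocytes or interstitial macrophages is called monocytes here for short. Of its 85 saline cells 49 parted as T or NK cells at finer clustering, and their part in its levels was not tested. Saline Cd44 ran from alveolar macrophages (1899 UPM) through monocytes or interstitial macrophages (238), pericytes (182.5), smooth muscle (107), fibroblasts (102) and epithelium (77.6) to endothelium (37.0); the intervals of monocytes and pericytes overlapped, as did those of smooth muscle and fibroblasts. Itgav was highest in smooth muscle (73.8), followed by pericytes (38.6) and fibroblasts (36.3), endothelium (25.7), monocytes (24.0), epithelium (21.9) and alveolar macrophages (15.97), and each neighbour in that order overlapped the next. Itgb5 was 232 UPM in pericytes, 183 in smooth muscle and 178 in fibroblasts, which overlapped, then 78.9 in monocytes, 43.4 in endothelium, 43.2 in alveolar macrophages, not apart from endothelium, and 11.4 in epithelium. Fibroblast RNA was present in both of the middle classes: endothelial Itgb5 was 23.0 UPM at finer clustering, and fibroblast genes stood in saline monocytes at 4.65% (Lum) to 71.9% (Timp1) of their fibroblast level, so the monocyte place is not told apart from background. Itga4 was 33.8 UPM in monocytes, 32.3 in alveolar macrophages and 28.1 in pericytes, not apart, and at most 4.73 elsewhere. Itga9 was 81.4 UPM in smooth muscle, 38.5 in epithelium, 33.0 in endothelium and 26.8 in fibroblasts, the latter 3 each overlapping the next, and under 10 UPM in the other classes. By kind it was highest in lymphatic endothelial cells (117 [58.3 to 209] UPM), then in alveolar type 2 cells, the surfactant-making epithelium (64.2 [53.1 to 76.9] UPM), and both overlapped smooth muscle. Itgb3 was at most 11.4 UPM in any class after saline.

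**Figure D5:**
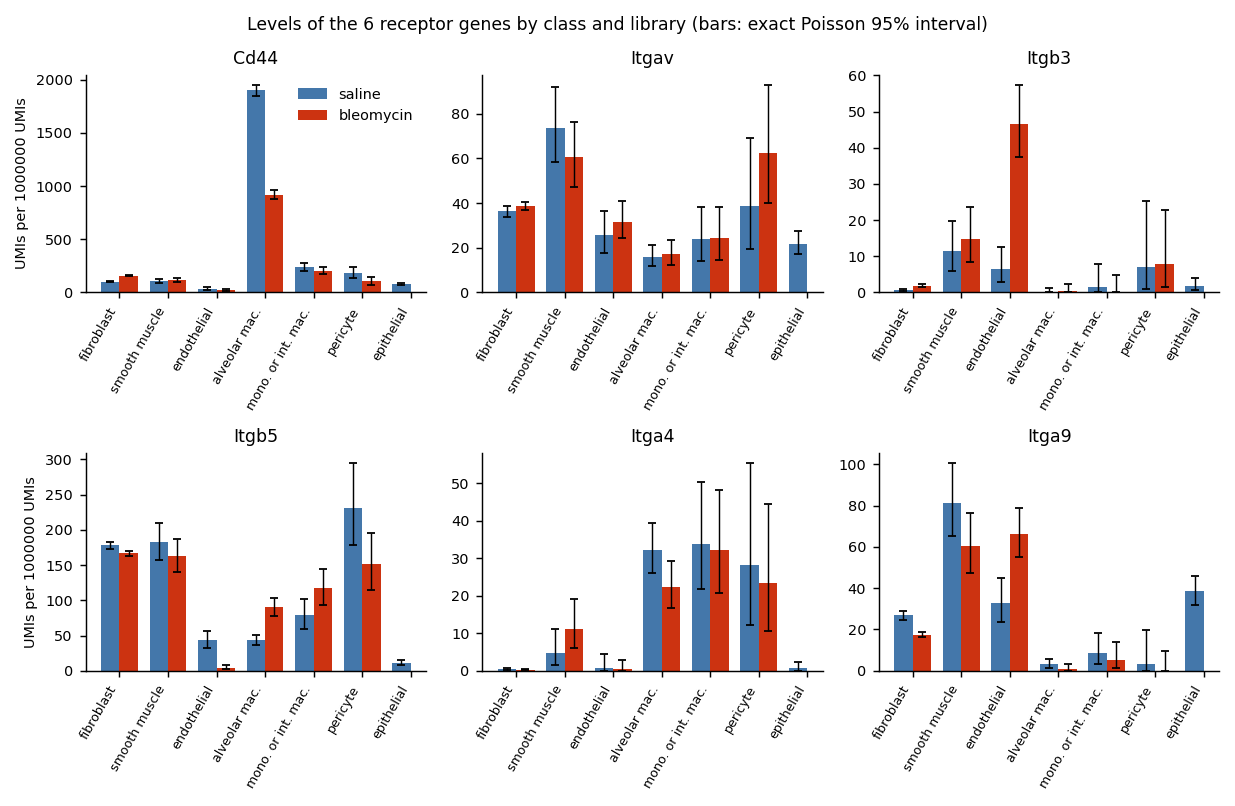
Levels of the 6 receptor genes (y axis, UMIs per 1000000 UMIs, one scale per panel) by class (x axis) in saline (blue) and bleomycin (red), with exact Poisson 95% intervals; bleomycin epithelium (5 cells) is left out. Cd44 stands out in alveolar macrophages, Itga4 in macrophages, monocytes and pericytes, and Itgb3 in bleomycin endothelial cells at 46.6. The class of monocytes or interstitial macrophages also holds T or NK cells.

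The genes most like each receptor gene over the same 28 sums were 3110043O21Rik, Ifi30 and 1600014C10Rik for Cd44 (r 0.834, 0.832 and 0.826), Clip3, Myl9 and Smtn for Itgav (0.875, 0.867 and 0.860), Asap2, Tinagl1 and Ctnna1 for Itgb3 (0.817, 0.817 and 0.808), Meis3, Lrp1 and Dkk3 for Itgb5 (0.907, 0.875 and 0.863), Trpv2, Coro1a and Cxcr4 for Itga4 (0.879, 0.873 and 0.869) and Ctnnal1, Igsf3 and Cers4 for Itga9 (0.857, 0.833 and 0.777).

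Other genes of the pathway were followed in fibroblasts from fixed lists. Calls below stand beside 15.9% of all genes measured in fibroblasts that passed the rule. Of 6 further subunits of osteopontin-binding integrins, 3 were measured: Itga5, the fibronectin receptor subunit α5, rose from 15.1 to 108 UPM (log2 2.76), Itga8, the α8 subunit of lung fibroblasts that also binds osteopontin, fell from 279 to 79.3 UPM (log2 -1.80), and Itgb1 did not pass the rule. Of 14 other ligands of the same receptors 11 were measured, and 4 rose: Postn, periostin (log2 6.14), Fn1, fibronectin (2.78), Tnc, tenascin-C (2.52) and Ctgf, a matricellular growth factor (1.36), beside 6.17% of all genes that rose. Vcam1, the α4β1 ligand on cell surfaces, and the matricellular Cyr61 fell (log2 -1.31 and -1.08), beside 9.69% of all genes. The median log2 ratio of the 11 was 0.72, against -0.01 over all genes measured.

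Of 10 enzymes that modify or cleave osteopontin 2 were measured, and they passed the rule in opposite directions, beside 15.9% of all genes. Mmp3, a metalloproteinase that cleaves it, rose from 105 to 220.5 UPM (log2 1.07), and Tgm2, a transglutaminase that crosslinks it, fell from 281 to 101 UPM (log2 -1.47). Of 7 genes for the making, breakdown or sensing of hyaluronan, the main ligand of CD44, only the synthase Has1 was measured, and it fell (log2 -1.06). None of the 7 measured of 12 adaptors and kinases beneath integrins and CD44 passed the rule; the 4 most abundant were Fermt2, a kindlin (296 and 207 UPM), Ilk, integrin-linked kinase (191 and 245), and the actin linkers Rdx (178 and 139) and Msn (126.5 and 206).

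Of 12 transcription factors known to act on Spp1, 8 were measured in fibroblasts, none rose and 4 fell: Jun (log2 -1.93), Fos (-1.72), Junb (-1.64) and Jund (-1.48), all members of AP-1. Beside them 9.69% of all genes fell. The median of the 8 was -1.13, against -0.01 over all genes. The same number fell in alveolar fibroblasts (median -1.02) and in endothelial cells (4 of 7 measured, median -1.06). Runx2 is the bone factor whose core is marked in the upstream sequence above. In fibroblasts Runx2 was higher after bleomycin, at 2.102 and 11.97 UPM (54 and 624 UMIs, log2 2.06). Its UPM was short of the size rule, so it is counted as under the minimum. Runx1, outside the list and looked at after values were seen, rose from 25.5 to 83.2 UPM (655 and 4337 UMIs). In alveolar macrophages 1 of 10 measured factors passed the rule, near the 8.34% of all genes: Fos fell (log2 -1.10), while Runx2 was 64.2 and 36.1 UPM (log2 -0.81, not past the rule) and Runx1 282 and 186 UPM. Of the 10 enzymes 4 were measured in these cells, where 2.92% of all genes rose and 5.42% fell. Acp5, the phosphatase that removes phosphate from osteopontin, rose (164 and 468 UPM, log2 1.51), as did the kinase gene Fam20c (5.44 and 29.2 UPM, 2.23). Mmp12, the macrophage elastase, fell (188 and 36.5 UPM, -2.33), and 1 enzyme did not pass the rule.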

How the data were processed

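Live tdTomato-positive lung cells were captured as 1 saline and 1 bleomycin library. The values are the deposited UMI counts, unnormalized, which the authors made with Cell Ranger 2.1.1 on mm10, per the submitters' processing notes. The annotation release and cell calling were not given in the sources used here. Barcodes needed 500 genes, 1000 UMIs and no more than 10% mitochondrial UMIs. Scrublet's automatic threshold marked 8 and 4 barcodes, so the 237 and 160 with the highest scores (0.8% per 1000 barcodes) were left out as doublets. Cells were clustered with scanpy 1.11.5 (2000 variable genes without the 7 members, 30 components, 15 neighbours, Leiden resolution 1, 27 clusters) and named from marker lists. UMIs were summed per class and library. Intervals are exact Poisson, conditional binomial or Clopper-Pearson; with PCR and 1 library they cover counting error only. Named genes are the members, up to 4 genes per list past the size rule with the largest fibroblast ratio (or, if none, the most abundant), the genes most alike by Pearson correlation and the 5 highest clusters in Spp1; Runx1, C1qa, the alveolar macrophage list genes and the free-RNA genes were added after values were seen. Members, lists and tests were chosen with earlier results of these data known. The summing and size rule were tested on simulated data.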

Additional observations from a re-analysis of the deposited data

Results flagged for a closer look

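Itgb5 passed the size rule in opposite directions in 2 classes. Its log2 ratio was 1.05 in alveolar macrophages, where it rose, and -3.09 in endothelial cells, where it fell. With 1 library per group the difference between the classes was not tested. The endothelial value lies beside more fibroblast RNA in the saline cells (Mfap4, a fibroblast gene, was 1729 and 110.1 UPM), whose part was not tested.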

How the results depend on the processing

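No paired analysis was possible because each group is 1 library. The fibroblast Spp1 log2 ratio of 8.77 was 7.94 with 10 UPM added to each level and 9.32 without the top cell of each library, chosen after seeing the data; that for alveolar macrophages was 3.15 with cells thinned to 2000 UMIs. The thinned share of bleomycin fibroblasts with Spp1 was 38.6% at 1000 UMIs, 91.7% without thinning and 20.6% above the highest endothelial cell. The top 10% of cells held 85.9% with each library clustered alone, 83.8% as a mean over cells and 84.3% thinned. The count of receptor genes past the size rule in fibroblasts was 1 (Cd44) with the free-RNA floor subtracted and 2 (Cd44, Itga9) at 1.5-fold; the other settings tried gave 0. Spp1 in endothelial cells went to -1.64 with the floor subtracted, because these cells set the floor in the bleomycin library. Of 232 further values, each for 1 gene, class and setting, 209 stayed close to the main value and 22 moved further. The remaining 1 changed direction, which was counted only for genes that rose or fell in the main analysis. Changes of sign in other genes were not counted so, as for Cd44 in smooth muscle (log2 0.09, and -0.99 with each library clustered alone). Close means no further than the larger distance from the main value to an end of its counting interval.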
